A study of Homo sapiens with 8 samples.

Results

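Membrane transport genes were examined in a comparison of RNA N6-methyladenosine (m6A) between decitabine-treated and control HL-60 cells, a widely used human cell line from promyelocytic leukaemia. The members are solute carriers (SLC and SLCO), ATP-binding cassette transporters (ABC), ATP-driven pumps (ATP) and the channel families KCN, CLCN, TRP, TMC and ANO. The rule uses gene names and no measured value, though the group was picked with earlier results of these data known. Of the 4626 features (short stretches of RNA) in the authors' deposited table, 84 carried such a name, 1 of them an antisense RNA that was left out, so 83 features of 66 genes remained. The table holds 3114 gene names in all. The HL-60 cells were labelled as wild type and came in 2 treatment arms. Decitabine, a deoxycytidine analogue that traps DNA methyltransferases, was added to 100 nM on 3 occasions (at the start, after 24 hours and after 48 hours), and the other arm received DMSO. Both arms were harvested at 72 hours. Each arm was seeded in duplicate and gave m6A immunoprecipitated and input libraries, 2 of each kind per arm and 8 in all.

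m6A is laid down on messenger RNA by a methyltransferase complex and lies mostly near stop codons, in the 3' part of transcripts and in long internal exons. Reader proteins bind it and alter the decay, translation or splicing of the RNA. Solute carriers move nutrients, ions and metabolites along or against gradients, pumps spend ATP directly, and channels let ions flow passively. Decitabine is a nucleoside, so it enters cells through the equilibrative (SLC29) and concentrative (SLC28) nucleoside carriers and is then phosphorylated.

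Each feature per the authors' deposited table has a single natural log ratio and p-value for the comparison, with no value per library, no error and no replicate spread. No test over cultures could therefore be made, and what follows is a description. The authors' deposited table lists no feature with an absolute log ratio under 0.501 or a p-value above 0.00455, so every member had already passed a threshold, and how many features were tested is not stated. The arm in the numerator is not stated. Since decitabine names the table, positive values probably mean a higher decitabine arm. A fold here is the larger arm over the smaller. How the ratio was corrected for input is not stated either, so a change in RNA level could be part of it. In bulk cultures a large change in few cells and a small change in all cells cannot be told apart. A ratio within a relative tolerance of 1e-08 of a multiple of 0.5 is called stepped. Large ratios of this kind can arise when whole-number totals are divided and the smaller total is 1 or 2, and their size then has little precision.

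Transporter and channel genes carried features of both signs, in shares near those of all listed features. Of the 83 features, 50 were positive and 33 negative, a positive share of 60.2% (95% Wilson interval 49.5 to 70.1), beside 56.3% of all listed features. Counted once per gene by the feature with the smallest p-value, 37 of 66 genes were positive (56.1%), beside 58.9% of all listed genes. These shares lie near the background and do not set the members apart. The positive features had a median of 29.3-fold, beside 10.1-fold over all listed features. That median is the midpoint of member ratios of 23.7-fold and 35-fold, and without stepped ratios it was 3.36-fold, beside 3.33-fold over all listed features. Negative features were 33 of 83 beside 43.7% of all listed features, and their medians were 3.74-fold among the members and 3.95-fold over all.

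Stepped ratios made up 26 of the 83 member features (31.3%), beside 30.6% of all listed features. They were 23 of the 50 positive and 3 of the 33 negative ones, and over all listed features 1151 of the 1415 stepped ratios were positive as well. Ratios of 10-fold or more numbered 30 (36.1%, beside 38.5% of all), of which 26 were positive, beside 1305 of 1781 over all listed features. Of those 30, SLC35D1, SLC25A24, SLC20A2, SLC19A2 and the larger SLC8A1 feature were the ones not stepped. In lowest terms SLC35D1 was 71 to 3, SLC25A24 304 to 5 and that SLC8A1 feature 238 to 5. If these are whole-number totals, their sizes may have little precision as well. With stepped ratios left out, 27 features were positive and 30 negative (47.4%, beside 45.3% of all listed features). SLC35D1, SLC25A24 and the larger SLC8A1 feature were among 7 member ratios that equalled fractions in lowest terms with a smaller term between 3 and 10. Another 23 had a smaller term between 11 and 100.

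**Figure D1:**
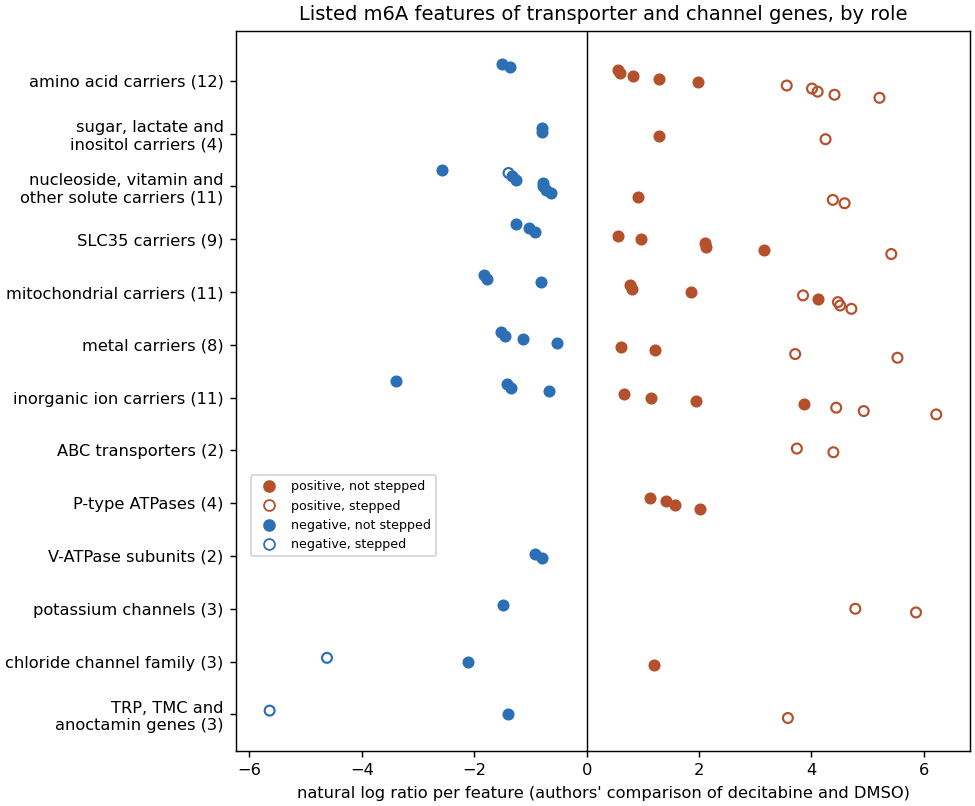
Natural log ratio (horizontal axis) of each of the 83 features, by role of the gene (vertical axis, number of features in brackets). Filled points are ratios that are not stepped and open points are stepped ratios. Of the 26 open points 23 lie on the positive side, as do 1151 of 1415 over all listed features. The 4 P-type ATPase features are all positive and the 2 V-ATPase features both negative. The Wilson intervals of both positive shares include the 56.3% of all listed features.

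The nucleoside carriers were represented by SLC28A3. It encodes the concentrative nucleoside transporter CNT3, which couples uptake of purine and pyrimidine nucleosides to sodium and protons. In the authors' deposited table its feature (ENSG00000197506.8, hg38 chromosome 9, 84276804 to 84276853, minus strand) had a natural log ratio of -1.32, a negative 3.74-fold ratio (p = 8.6e-05). Its distance to the 3' end of the gene was 1347 nt. The ratio was not stepped: it equalled 176 to 47 in lowest terms, so neither arm was nearly empty if the arms are whole-number totals. Among the negative members, SLC25A23, KCNAB2 and SLC35E2B had smaller p-values. The other 6 nucleoside carriers of the list (SLC28A1, SLC28A2 and SLC29A1 to SLC29A4) were not among the listed features. SLC29A1, the main equilibrative carrier, was therefore without a value here, which says nothing about its expression or methylation.

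Some genes of nucleotide metabolism were listed, and none of the drug efflux pumps on the list was. Of 14 enzymes of deoxycytidine and nucleotide metabolism, 3 had a feature, 1 positive and 2 negative. Over all protein-coding symbols, 13.3% had a listed feature. The enzyme list was chosen with earlier results of these data known, so a difference from that share was not tested. The authors' deposited table gave NT5C3A, a pyrimidine nucleotidase, a positive 281-fold stepped ratio (p = 5.0e-09). NT5C2, a purine-preferring cytosolic nucleotidase, stood at a negative 2.62-fold per the authors' deposited table, and DCTPP1, a pyrophosphatase of dCTP and its analogues, at a negative 20.5-fold stepped ratio. DCK and CDA, which activate and inactivate decitabine, were not among the listed features, nor were any of the 9 efflux pumps of the list (ABCB1, ABCG2 and 7 ABCC genes).

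Amino acid carriers held features of both signs. Of 28 carriers on the list, 8 had a listed feature, beside 13.3% of all protein-coding symbols. That list is a selection of such carriers, chosen with earlier results of these data known. Whether its listed share exceeds the background was therefore not tested. By leading feature, 7 of the 8 were positive. Their 12 features were 10 positive and 2 negative, and 5 of the positive ones were stepped. The positive shares, 83.3% of features (Wilson interval 55.2 to 95.3) and 87.5% of genes (52.9 to 97.8), have intervals that include the 56.3% and 58.9% over all listed features and genes. SLC7A6, a light chain that pairs with SLC3A2 to exchange cationic and neutral amino acids, had the largest ratio of the group per the authors' deposited table, a positive 184-fold stepped ratio (chromosome 16, 68297331 to 68297380, p = 4.2e-06). A second SLC7A6 feature 1348 nt downstream was at a positive 7.24-fold per the authors' deposited table (p = 0.0017). That feature also lay inside the span of SLC7A6OS, so the gene its reads came from cannot be told here.

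The system A carrier SLC38A2, which takes up small neutral amino acids and responds to their shortage, stood at a positive 55-fold stepped ratio (p = 7.2e-05) per the authors' deposited table. SLC38A5, a glutamine carrier, stood at a positive 61-fold stepped ratio (p = 2.1e-06), 748 nt from the 5' end of its span, per the authors' deposited table. SLC43A2, a carrier of large neutral amino acids, had a positive 82-fold stepped ratio (p = 3.7e-07) per the authors' deposited table. Its paralogue SLC43A1 was the group's negative gene, at 4.54-fold (p = 0.0027) per the authors' deposited table. Both genes of this pair carry leucine and related amino acids, and their listed features had opposite signs.

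Smaller ratios were found in the other amino acid carriers. SLC38A10 held positive features of 3.61-fold (p = 3.7e-05) and 1.82-fold per the authors' deposited table, 349 nt apart near the 3' end. SLC7A1, the cationic amino acid transporter for arginine and lysine, was at a positive 2.30-fold (p = 0.0024) per the authors' deposited table. SLC1A5, the glutamine carrier ASCT2, had 3 features near its 5' end, which began 50, 497 and 696 nt into the gene span. In that order the authors' deposited table gave a positive 35-fold stepped ratio (p = 0.00018), a positive 1.73-fold ratio and a negative 3.95-fold ratio. The sign thus differed between features whose starts were 199 nt apart.

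Carriers of sugars and organic acids had small negative ratios, apart from SLC5A3. SLC2A1 (GLUT1), the basal glucose carrier, and SLC16A3 (MCT4), which exports lactate from glycolytic cells, were both at a negative 2.21-fold per the authors' deposited table (p = 0.0028 and p = 0.0013). SLC5A3, a sodium-coupled myo-inositol carrier, had a positive 70-fold stepped ratio and a positive 3.58-fold ratio per the authors' deposited table. Both SLC5A3 features also lay inside the span of MRPS6, a mitochondrial ribosomal protein gene, so they cannot be given to SLC5A3 alone. The other 9 of 12 genes on the glucose and monocarboxylate list were not among the listed features. Over all protein-coding symbols, 13.3% were listed. The glucose and monocarboxylate list was chosen with earlier results of these data known, so a difference from that share was not tested.

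The SLC35 family carries nucleotide sugars and related compounds into the endoplasmic reticulum and Golgi. Its 9 features of 8 genes were 6 positive and 3 negative, and 1 was stepped. The positive share, 66.7%, has a Wilson interval from 35.4 to 87.9, which includes the 56.3% of all listed features. SLC35A1, which brings CMP-sialic acid into the Golgi, held a positive 226-fold stepped ratio (p = 0.0007) and, 149 nt further on, a positive 8.40-fold ratio (p = 3.3e-05) per the authors' deposited table. Both ended within 598 nt of the gene's 3' end. SLC35D1, a carrier of UDP-glucuronic acid and UDP-N-acetylgalactosamine, stood at a positive 23.7-fold, or 71 to 3 in lowest terms, per the authors' deposited table. SLC35A4 was at a positive 8.19-fold (p = 0.00037) and SLC35B2, which carries the sulphate donor PAPS, at a positive 2.64-fold per the authors' deposited table. SLC35C2 was at a positive 1.73-fold, among the smallest member ratios per the authors' deposited table. The negative members were SLC35E2B at 3.51-fold (p = 5.7e-05, over 100 nt), SLC35G1 at 2.78-fold and SLC35A5 at 2.51-fold per the authors' deposited table. SLC35E2B has a closely related copy, SLC35E2A, and the counting of reads shared by both is not stated.

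Mitochondrial carriers of the SLC25 family, which cross the inner membrane, gave 11 features of 9 genes, 8 positive and 3 negative. SLC25A36, a carrier of pyrimidine nucleotides, had the largest ratio of the family, a positive 111-fold stepped ratio (p = 2.0e-06) per the authors' deposited table. That feature was written as 2 blocks, so it crosses a splice junction. SLC25A37, the iron importer mitoferrin-1, held a positive 2.19-fold and a positive 87-fold stepped ratio per the authors' deposited table, 6068 nt apart.

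The calcium-regulated ATP-magnesium/phosphate carriers did not share a sign. In the authors' deposited table SLC25A23 was at a negative 6.25-fold (25 to 4 in lowest terms, p = 1.2e-05), the smallest p-value of any negative member. SLC25A24 stood at a positive 60.8-fold (304 to 5) and SLC25A25 at a positive 91-fold stepped ratio per the authors' deposited table, with p = 0.0013 and p = 0.0035. SLC25A3, the phosphate carrier, was at a negative 2.26-fold per the authors' deposited table. The mitochondrial NAD carrier SLC25A51 held 1 feature of each sign, positive at 2.25-fold and negative at 5.86-fold, per the authors' deposited table, with starts 150 nt apart. Its pseudogene SLC25A51P4 on chromosome 11 was at a positive 6.35-fold per the authors' deposited table. Reads can be shared between SLC25A51 and its pseudogene, so these values are uncertain as to their gene. Both SLC25A51 features also lay inside the span of the pseudogene PAICSP1.

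Metal carriers were evenly split, with 4 positive and 4 negative features (Wilson interval of the positive share 21.5 to 78.5, beside 56.3% of all listed features). Among zinc carriers, SLC30A6, a subunit of a Golgi zinc transporter, had a positive 41-fold stepped ratio (p = 5.2e-07) per the authors' deposited table. SLC30A1, which exports zinc at the plasma membrane, was at a negative 4.64-fold (p = 0.0019) and the uptake carrier SLC39A3 at a negative 4.25-fold per the authors' deposited table. The uptake carrier SLC39A10 stood at a positive 3.36-fold per the authors' deposited table. SLC39A7 (ZIP7), which releases zinc from the endoplasmic reticulum, held a positive 1.86-fold feature 476 nt from its 5' end and a negative 3.11-fold feature (p = 0.00025) 397 nt from its 3' end per the authors' deposited table. Ferroportin, SLC40A1, the cellular iron exporter, had the smallest ratio of all the members, a negative 1.71-fold per the authors' deposited table. SLC41A3, a magnesium carrier, had a stepped ratio of 251-fold on the positive side (p = 0.00057) per the authors' deposited table.

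Carriers of inorganic ions held the largest ratio among the members. SLC12A2 (NKCC1), which brings sodium, potassium and chloride into cells and drives volume recovery, had a positive stepped ratio of 502-fold per the authors' deposited table (ENSG00000064651.14, chromosome 5, 128084513 to 128084562, plus strand, p = 7.1e-10). This was also the smallest p-value of the 83 features. The feature began 747 nt from the 5' end of a gene span whose 3' end was 105115 nt away, unlike the 3' position of most members. WNK1, a kinase upstream of this carrier and outside the name rule, was at a negative 5.75-fold per the authors' deposited table.

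Both of the sodium-calcium exchanger genes that were listed had positive features only. SLC8A1 (NCX1), the exchanger of the plasma membrane, held a positive 47.6-fold ratio (238 to 5 in lowest terms) and a positive 3.12-fold ratio (p = 0.0021) per the authors' deposited table. The former also lay inside the span of the antisense RNA SLC8A1-AS1. SLC8B1, the mitochondrial exchanger, held positive ratios of 6.94-fold (p = 0.00011) and 1.94-fold per the authors' deposited table. The phosphate carriers SLC20A1 and SLC20A2 were negative, at 1.96-fold and 29.9-fold (329 to 11), and so was the bicarbonate exchanger SLC4A8, at 3.84-fold (p = 0.0003), per the authors' deposited table.

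The 3.12-fold SLC8A1 feature was the only member feature that reached into a RefSeq start-site window (250 bases before to 50 after a gene's start, matched for 53 of the 66 genes on GRCh38.p14). It is shown because it lies at an internal start site, whose first base is at 40430304 on the minus strand of chromosome 2. The 40 bases shared by the feature and the window, chr2:40430255-40430294, are given 5' to 3' as DNA letters, with both ATG triplets in capitals.
SLC8A1: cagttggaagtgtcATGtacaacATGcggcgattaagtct
The letters GGAC, the core of the common m6A consensus, and GGACT were searched on the transcript's strand and do not occur in this stretch. Among all 34943 distinct windows, the same 40 positions hold GGAC in 15.9% and GGACT in 3.91%. The remaining bases of the feature were not used here.

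The remaining solute carriers, a group made of what the other roles left and counted with SLC28A3, had 8 negative and 3 positive features. The positive share of features was 27.3% (Wilson interval 9.75 to 56.6, beside 56.3% of all listed features). By leading feature 1 of 8 genes was positive (12.5%, 2.24 to 47.1, beside 58.9% of all listed genes). SLC19A2, the high-affinity thiamine carrier, was at a negative 13.2-fold (p = 0.00076) per the authors' deposited table. Its ratio equalled 845 to 64 in lowest terms and was not stepped. SLC44A2, a choline transporter-like protein of leukocytes, stood at a negative 4-fold per the authors' deposited table, which counts as stepped but is too small to show a nearly empty arm. SLC10A3 was at a negative 3.48-fold, the vesicular nucleotide carrier SLC17A9 at a negative 1.89-fold, and SLC66A2 at negative 2.06-fold and 2.18-fold per the authors' deposited table. SLC45A4 was the positive exception by leading feature, at 98.5-fold stepped (p = 3.1e-08) per the authors' deposited table. SLC33A1, which carries acetyl-CoA into the endoplasmic reticulum, held a negative 2.15-fold feature and a positive 2.51-fold feature with starts 150 nt apart near its 5' end, and a positive 80-fold stepped ratio further 3', per the authors' deposited table.

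Among the ATP-driven pumps, the P-type ATPases and the V-ATPase subunits were listed with opposite signs. All 4 P-type ATPases were positive and none was stepped. The plasma membrane calcium pumps ATP2B4 and ATP2B1 stood at 4.85-fold (p = 0.00034) and 4.11-fold (p = 0.0039) per the authors' deposited table. ATP9B and ATP8B4, of the phospholipid flippase group, were at 7.47-fold (p = 0.0031) and 3.08-fold (p = 0.00034) per the authors' deposited table. The V-ATPase is a proton pump, and its subunit genes ATP6V1C1 and ATP6V1E2 were negative, at 2.51-fold (p = 0.0018) and 2.23-fold (p = 0.0044) per the authors' deposited table. ATP6V1E1, which encodes the other form of the E subunit, was not among the listed features. With 6 features the share of positive ATP features, 66.7%, has a Wilson interval from 30 to 90.3, which includes the 56.3% of all listed features. The split rests on 4 and 2 features. The intervals of the P-type ATPases (51 to 100) and the V-ATPase subunits (0 to 65.8) include 56.3% as well. The ABC family had 2 features, both positive and stepped. ABCA13, a very large protein of the lipid-carrying ABCA group, was at 42-fold (p = 5.8e-06) per the authors' deposited table.

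Channel genes had 9 features, 4 positive and 5 negative. The positive share was 44.4% (Wilson interval 18.9 to 73.3), beside 56.3% of all listed features. Of the 9, 5 were stepped (55.6%), beside 30.6% of all listed features. KCNMB3, an accessory subunit of the large-conductance calcium-activated potassium channel, had the second largest ratio of all members, a positive 351-fold stepped ratio (chromosome 3, 179259348 to 179259397, p = 5.5e-08) per the authors' deposited table. It also lay inside the span of the pseudogene LRRFIP1P1. The background potassium channel KCNK6 stood at a positive stepped ratio of 239 to 2 (p = 2.1e-07) per the authors' deposited table. KCNAB2, a cytoplasmic subunit of voltage-gated potassium channels, was negative at 4.42-fold over 100 nt (p = 2.8e-05) per the authors' deposited table.

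The endolysosomal chloride-proton exchangers differed in sign. CLCN7, which works in lysosomes and in bone resorption, held negative ratios of 8.21-fold (p = 0.0018) and 102-fold (stepped, p = 0.0015) per the authors' deposited table, 897 nt apart near its 3' end. Both also lay inside the span of the pseudogene LOC647211. CLCN3 was at a positive 3.33-fold, 10 to 3 in lowest terms, over a splice junction per the authors' deposited table. TRPM2, a calcium-permeable channel opened by ADP-ribose and oxidative stress, stood at a positive 36-fold stepped ratio (p = 0.00017) per the authors' deposited table, 209 nt before its gene's 3' end. ANO7 had the largest negative ratio among the members, 281-fold and stepped (p = 0.0023), and TMC6 was at a negative 4.06-fold per the authors' deposited table.

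**Figure D2:**
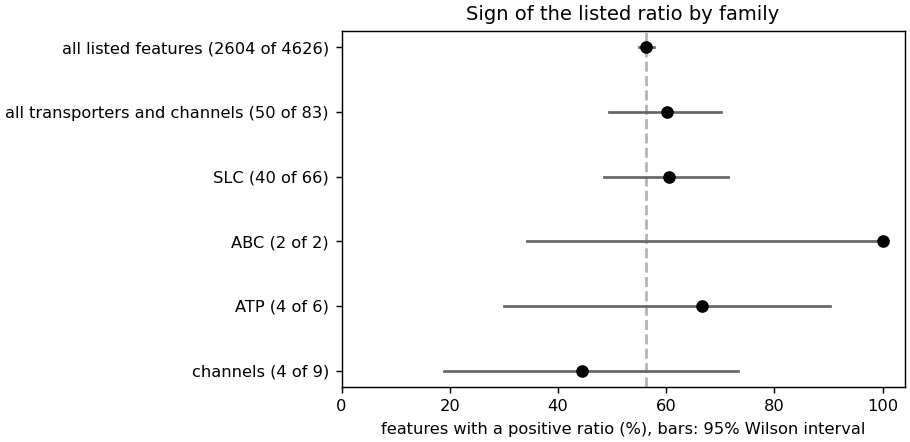
Share of features with a positive ratio (horizontal axis, percent) in each family, with 95% Wilson intervals over features as bars and the share over all listed features as a dashed line. Every family's interval includes the 56.3% of all listed features.

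Genes with several features held either 1 sign or both. Of the 66 genes, 52 had 1 feature, 11 had 2 and 3 had 3. Among the 14 with more than 1, 5 held both signs (35.7%, Wilson interval 16.3 to 61.2), beside 58.4% of 946 such genes in the whole table. With stepped ratios left out it was 4 of 8 genes (50%, beside 57.7% of all). With p under 0.001 it was 3 of 6, and the share over all listed genes was not computed there. Among the 5 were SLC1A5, SLC25A51, SLC33A1 and SLC39A7. Of the other 9, SLC66A2 and CLCN7 were wholly negative and the remaining 7 wholly positive. Adjacent features agreed in sign in 12 of 17 pairs, and in 8 of the 12 pairs that started within 1000 nt of each other. Pairs were not counted over all listed features, so whether these counts differ from the background was not tested. Pairs of opposite sign occurred as close as 150 nt, in SLC25A51 and SLC33A1. In 8 of the 14 genes the largest ratio was stepped, among them SLC7A6, SLC35A1, SLC5A3, SLC25A37 and CLCN7. This too was not counted over all listed genes.

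**Figure D3:**
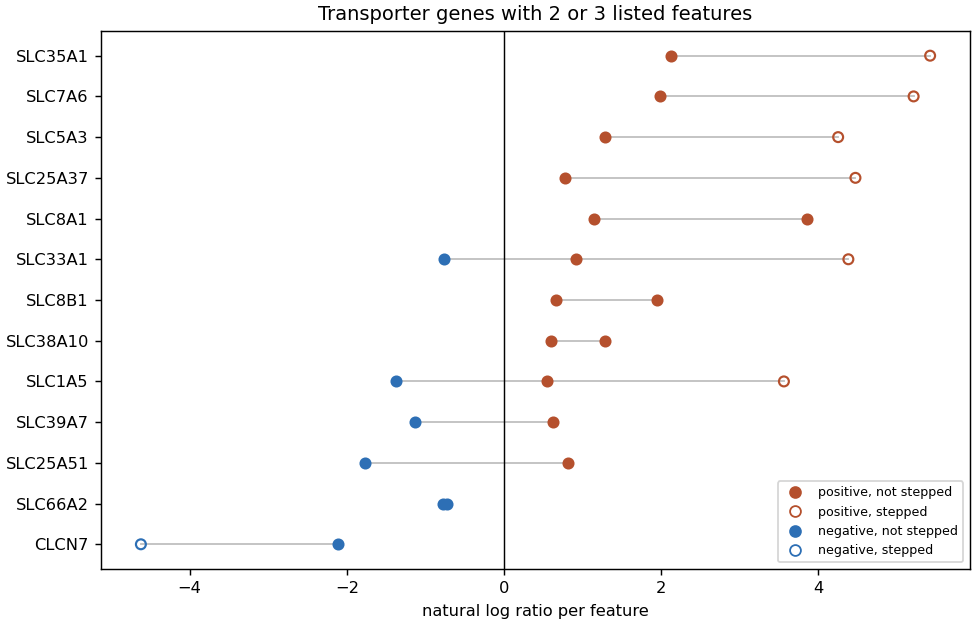
Natural log ratio (horizontal axis) of each feature in 13 of the 14 genes with 2 or 3 listed features (vertical axis), joined by a grey line. Filled points are not stepped, open points are stepped. In 4 of the genes drawn the line crosses 0, and in CLCN7 and SLC66A2 all features lie below 0.

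Families were unequally represented in the authors' deposited table. Of 652 RefSeq protein-coding symbols that match the name rule, 64 (9.82%) had a listed feature under that symbol, beside 13.3% of all 20056 protein-coding symbols. The share was 12.1% for solute carriers (48 of 397), 9.38% for ATP genes (6 of 64), 5.52% for channels (8 of 145) and 4.35% for ABC genes (2 of 46). Within the solute carriers, SLC35 (7 of 31, 22.6%), the zinc families SLC30 and SLC39 (5 of 24, 20.8%) and SLC25 (8 of 48, 16.7%) held many of the listed genes. No gene was listed of the organic ion carriers SLC22 (21 symbols) or the neurotransmitter carriers SLC6 (19 symbols). Their Wilson intervals, 0 to 15.5 and 0 to 16.8, include 13.3%. So do the intervals of solute carriers, ATP genes, ABC genes, SLC35, the zinc families and SLC25. Of the potassium channel genes, 3 of 96 were listed (3.12%). The intervals of these (1.07 to 8.79) and of all channels (2.82 to 10.5) lie below 13.3%. The deposited table holds no expression level, and a gene that is not expressed cannot be listed, so the part of expression in these shares was not tested.

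**Figure D4:**
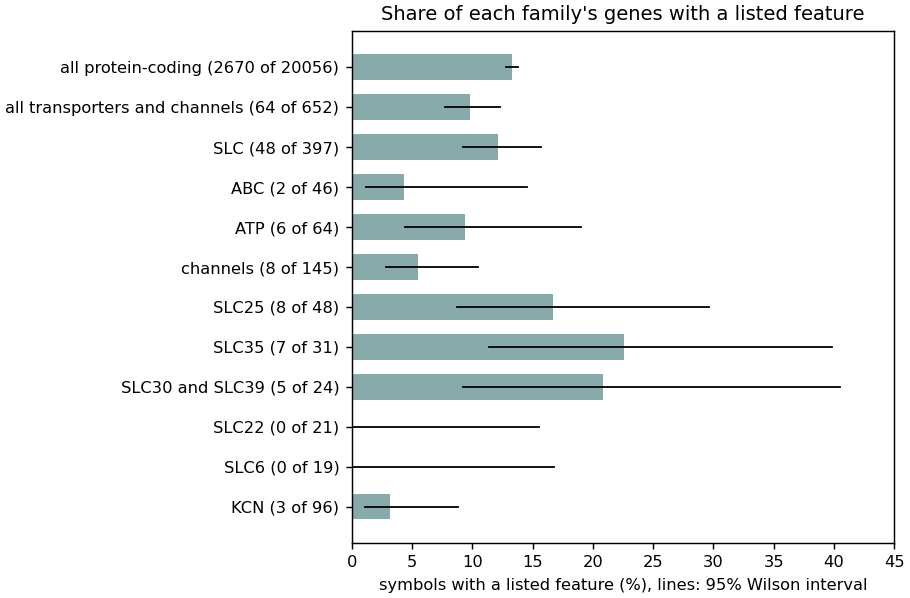
Share of RefSeq protein-coding symbols with a listed feature (bars, percent) by family, with 95% Wilson intervals as lines. Channels and ABC genes stand lowest among the main families, and the Wilson interval of KCN (1.07 to 8.79) lies below the 13.3% of all protein-coding symbols. The intervals of channels (2.82 to 10.5) and of all transporters and channels (7.76 to 12.3) lie below it too. The other intervals drawn include it.

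Most member features lay towards the 3' end of their gene. All 83 fell inside the RefSeq span of the matched gene, at a median of 85.1% of the way from the 5' to the 3' end, beside 81.8% over all listed features inside a span. Within 5000 nt of the 3' end lay 53 of the 83 (63.9%), beside 55.7% of all. Negative members were there in 24 of 33 cases (72.7%) and positive ones in 29 of 50 (58%), beside 55.7% of all listed features of either sign. At the other end, 9 features (10.8%) began within 1000 nt of the 5' end, beside 6.31% of all. These were the 3 of SLC1A5, 2 of SLC33A1 and those of SLC12A2, SLC38A5, SLC25A24 and SLC39A7, and 7 of the 9 were positive, beside 165 of 272 over all listed features. Exons and UTRs were not annotated here, so distances run along the genome and include introns. Of the 83 features, 10 also lay inside the span of another annotated gene, and the counting of reads there, by strand or otherwise, is not stated.

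**Figure D5:**
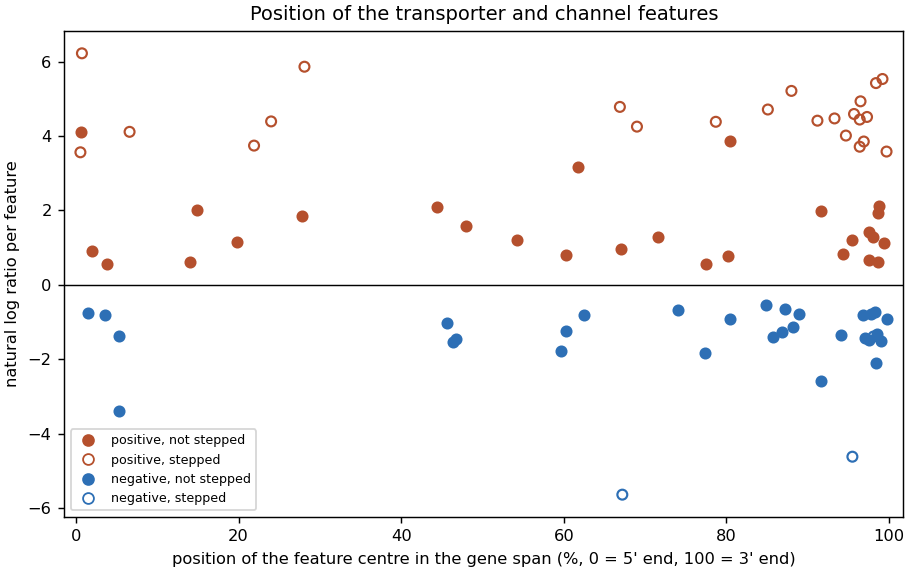
Natural log ratio (vertical axis) of each of the 83 features against the position of its centre in the gene span (horizontal axis, percent from the 5' to the 3' end). Filled points are not stepped, open points are stepped. Features gather at the 3' end, with 46 of 83 (55.4%) in the last 20% of the span. Over all listed features inside a span the share was close to this, 2258 of 4312 (52.4%).

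Partners of the members that fall outside the name rule were also of both signs. Of 18 calcium channels and pumps on the list, 7 were listed, beside 13.3% of all protein-coding symbols. By leading feature 5 were positive and 2 negative, beside 58.9% positive over all listed genes. The list was chosen with earlier results of these data known. It holds ATP2B1 and ATP2B4 without their paralogues ATP2B2 and ATP2B3, so whether its listed share exceeds the background was not tested. The 7 listed genes include ATP2B1 and ATP2B4, which are members. Of the others, ORAI2, of the ORAI channels of store-operated entry, had a stepped positive ratio (175-fold) beside a negative ratio of 2.69-fold per the authors' deposited table. STIM1, an activator of ORAI channels, was at a positive 2.63-fold per the authors' deposited table. The inositol trisphosphate receptor ITPR2 was at a positive 73-fold stepped ratio, the mitochondrial calcium uniporter MCU at a negative 4.49-fold and the lysosomal channel TPCN2 at a negative 5.68-fold per the authors' deposited table. Among 28 other channel genes 6 were listed, beside the same 13.3% of all protein-coding symbols, 4 positive and 2 negative. That list was chosen with the same earlier results known. PKD1 held 3 positive features of 166-fold (stepped), 4.10-fold and 3.55-fold per the authors' deposited table. The volume-regulated anion channel subunits LRRC8A and LRRC8B had opposite signs, positive at 2.90-fold and negative at 2.88-fold, with P2RX1 and PANX1 at a positive 3.58-fold and 3.22-fold, and the proton channel HVCN1 at a negative 3.21-fold per the authors' deposited table.

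Of 20 other carriers, 3 were listed. For this list and those below, the share over all protein-coding symbols was 13.3%. These lists too were chosen with earlier results of these data known. The phosphate exporter XPR1 (144-fold) and MFSD11 (148-fold) were positive with stepped ratios, and the lysosomal cholesterol carrier NPC1 held negative ratios of 5.33-fold and 2.18-fold, per the authors' deposited table. Of 19 V-ATPase genes and accessory factors on the list, ATP6V1C1 was listed, and ATP6V1E2 was not on that list. Of 13 flippases and partners, ATP8B4 and ATP9B were listed. The myeloid identity of the cells could not be checked from a table without expression levels. Of 10 myeloid markers 2 had listed features: CEBPA held positive ratios of 1.78-fold and 2.87-fold and SPI1 a negative ratio of 2.38-fold per the authors' deposited table.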

How the data were processed

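RNA m6A was measured in HL-60 cells by immunoprecipitation of 2 µg of fragmented RNA with 5 µg of an anti-m6A antibody. Per the labels' protocols, libraries of both kinds were sequenced from 1 end for 50 bases. The submitters' processing notes name STAR 2.7.3a and hg38. Not given in the sources used here are the software behind the ratios, any correction for input or library size, and the handling of replicates. The only data used were the authors' deposited table, whose columns include a log ratio and a p-value per feature. The deposited log ratio was read as a natural log, since its exponential was stepped for 1415 features and for 0 when read as base 2. Whether the deposited p-value was adjusted is not stated. Depth per library is unknown.

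From these values, folds, counts, medians and 95% Wilson intervals (counting of features only) were computed in Python 3.11.15 (scipy 1.17.1, numpy 2.4.6, pandas 2.3.3), with figures in matplotlib 3.10.9. The routines were tested on simulated data. Genes were matched to RefSeq (GRCh38.p14), 65 by symbol and 1 by synonym. Positions are 1-based with both ends included, so 81 member features cover 50 nt and 2 cover 100 nt. A gene's leading feature has the smallest p-value. The rule for named genes takes the 10 largest leading ratios of each sign, the 10 smallest p-values, all genes with several features, nucleoside carriers and efflux pumps, and the 3 leading genes of each family by p-value. The other members are given beside them, and the listed genes of the fixed lists are named. Some genes that the rule takes are not reported here, though counts include them. Members and lists were chosen with earlier results of these data known. The 10 features on chromosome Y, each with the same name, ratio and p-value as a feature on X, were left out of counts of signs within genes. Alternatives were leaving out stepped ratios, a p-value under 0.001, counting genes once, requiring the gene span, the largest ratio as leading feature, and base 2.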

Additional observations from a re-analysis of the deposited data

How the results depend on the processing

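Of 44 values under alternative settings, 33 stayed within the 95% interval of the value reported (or within 1.5 times a count) and 11 moved beyond it. Leaving out stepped ratios gave positive shares of 47.4% for member features, 42.9% for member genes and 46.8% for SLC features, a share of 8.77% for ratios of 10-fold or more, and a median positive ratio of 3.36-fold. The positive shares over all listed features and genes moved the same way, to 45.3% in both cases. Over all listed features the share of 10-fold or more was then 12.2% and the median positive ratio 3.33-fold. A p-value under 0.001 gave positive shares of 71.4% for features, 69.4% for genes and 100% for the 2 ATP features left, 47.6% for ratios of 10-fold or more, and 3 of 6 genes with both signs. Over all listed features and genes the same limit gave 60.6%, 62.4% and, for 10-fold or more, 46%. For genes with both signs no share over all listed genes was computed under this limit. Read as base 2, the median negative ratio was 2.50-fold. Leaving out stepped ratios removed both ABC features, so that family has no value there. No paired analysis was possible because the table holds no value per library, and no replicate could be left out. Depth is unknown, so the precision of a single ratio cannot be given.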
